A study of Homo sapiens with 10 samples.

Results

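The regions described here are 929 restriction fragments that hold no captured promoter but were called in contact with many different promoters. They were found in promoter capture Hi-C (PCHi-C) data of H9, an established human embryonic stem cell (ESC) line, and of neuroectodermal cells (NECs) obtained from H9 after 7 days of differentiation. Each cell type had 2 biological replicates for PCHi-C and 2 for RNA sequencing (RNA-seq). All samples come from 1 cell line, and the NECs are a culture of day 7 spheres rather than a sorted population. A member is a HindIII fragment that is never a bait (a captured promoter fragment) in any list and that was called in cis, on the same chromosome, with 6 or more different baits in the merged ESC list or in the merged NEC list. The 929 members are 1.41% of the 66112 non-bait fragments with a cis call in a merged list. The members were chosen by these bait numbers, so the numbers and the scores behind them are given as descriptions without a test.

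In PCHi-C, fragments that lie close together in the nucleus are ligated, and the products that hold a promoter are pulled out with RNA probes. What the promoter was joined to is called a promoter-interacting region (PIR). A PIR can be an enhancer that acts on its promoter, but it can also be the anchor of a loop held by CTCF and cohesin, a stretch bound by Polycomb proteins, or a neighbour in a dense cluster of genes. A fragment met by several promoters is often called a hub. PCHi-C reads many cells together, so it does not show whether such contacts occur at the same time. Gene clusters with such contacts include the histone genes, whose RNAs are made together in a nuclear body at the start of DNA replication, the HOX genes, which Polycomb complexes keep silent in stem cells, and the clustered protocadherins, cell surface proteins of neurons whose alternative promoters are chosen through looping to distant enhancers.

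CTCF is the DNA-binding protein best known for anchoring loops, and its sites are read in one orientation. The letters CCACNAGGG, the middle of its known motif, were found on at least 1 strand in 204 members (22.0%), against 14.6% of the 65183 other non-bait PIRs. Among the 20 fragments named below, 4 held them. Their windows of GRCh37 are shown 5′ to 3′ on the strand that carries the letters, with the letters in capitals, because the orientation of these letters is compared with the side of the contacted promoters further on.
HIST1 leading fragment, chr6:27109609-27109677, minus strand: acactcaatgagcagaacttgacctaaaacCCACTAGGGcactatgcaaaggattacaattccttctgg
KDM6B fragment, first, chr17:7734568-7734636, plus strand: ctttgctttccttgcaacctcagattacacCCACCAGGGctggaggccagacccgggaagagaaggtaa
KDM6B fragment, second, chr17:7737468-7737536, plus strand: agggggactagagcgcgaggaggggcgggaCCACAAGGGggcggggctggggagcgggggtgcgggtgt
KDM6B fragment, last, chr17:7739105-7739173, minus strand: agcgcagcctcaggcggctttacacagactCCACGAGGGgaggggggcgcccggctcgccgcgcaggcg
P2RX7 region fragment, chr12:121021752-121021820, minus strand: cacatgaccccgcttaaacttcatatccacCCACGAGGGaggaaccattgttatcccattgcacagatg
Keratin region fragment, chr17:39703865-39703933, minus strand: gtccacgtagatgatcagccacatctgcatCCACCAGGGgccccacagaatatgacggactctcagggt
Keratin region fragment, chr17:39705638-39705706, plus strand: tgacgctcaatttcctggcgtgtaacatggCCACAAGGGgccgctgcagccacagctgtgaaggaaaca
A match to these letters does not show that the protein binds there, and a fragment without them may still hold a site spelled otherwise.

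Most non-bait fragments were met by a single promoter: 71.3% of the merged PIRs had 1 bait. The members stood at the far end of a falling distribution, as the histogram of baits per fragment shows. Their calls made up 9.04% of the cis calls to non-bait fragments in the merged ESC list and 8.22% in the merged NEC list. By the higher of both lists, 365 members had exactly 6 baits, 127 had 10 or more and 27 had 15 or more, while 827 fragments just below the rule had 5. The rule was reached in both cell types by 309 members, in ESCs alone by 388 and in NECs alone by 232.

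**Figure D1:**
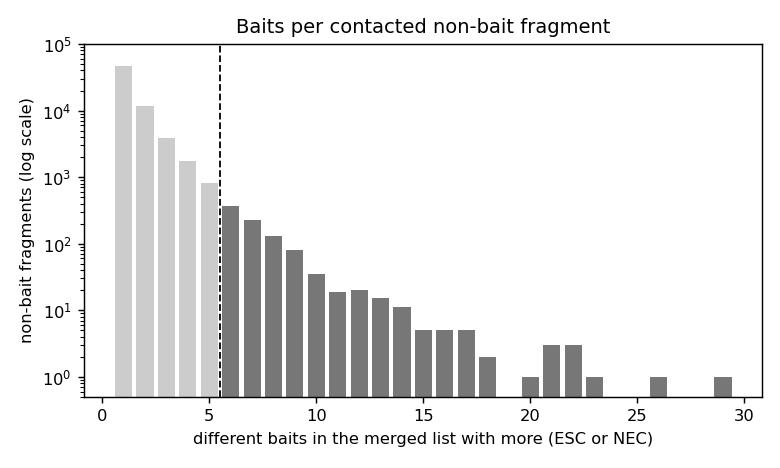
Number of non-bait fragments (vertical axis, log scale) by the number of different baits in whichever merged list, ESC or NEC, had more (horizontal axis). Dark bars right of the dashed line are the members, which fall from 365 fragments at 6 baits to 1 fragment at 29.

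The members were not spread evenly over the genome. Chromosome 1 held 161, chromosome 12 held 133 and chromosome 17 held 123, together 44.9% of all members, whereas chromosome 13 held 1 and chromosome 4 held 4. As a share of the merged PIRs of each chromosome, members made up 3.80% on chromosomes 12 and 19, against 0.139% on chromosome 4. When members that shared a bait were joined, they formed 179 loci, of which 76 had 1 member and 22 had 10 or more. The largest locus, on chromosome 12 between the HOXC cluster and CTDSP2, had 86 members.

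Members lay in gene-dense sequence. The median number of baits within 500 kb was 28 around members and 10 around the other non-bait PIRs. The rule itself bears on this comparison, because a fragment with few baits nearby can less easily reach the required number. A median of 28.4% of the baits within 500 kb of a member (quartiles 22.2% and 36.0%) contacted it. Members were also longer, with a median of 5617 against 4579 bases, and richer in G and C, with a median GC content of 48.2% against 42.9%. An exon of a protein-coding gene was overlapped by 57.3% of members and by 33.3% of the others, and 17.0% against 25.7% were intergenic. The promoters lay closer, at a median of 153 kb for the 8098 bait pairs of members and 232 kb for the 100661 other pairs. Whether length, GC content, gene overlap or distance differed between members and others with equal numbers of nearby baits was not tested. All baits lay on 1 side of the fragment in 22.8% of members. Although members were never baits, 36 of them held the start of a gene of the count table.

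The CTCF letters occurred 4.33 times per 100 kb in members and 3.17 times in the other PIRs, but the letters are themselves rich in G and C. Among fragments with over 50% GC the rates were 7.27 in the 347 members and 6.90 in the others, whereas members were lower in the other 3 classes, with 3.23 and 3.65 at 45 to 50% GC, 1.62 and 2.31 at 40 to 45% and 1.19 and 1.49 under 40%. Where the letters lay on the plus strand alone (86 members), 52.9% of the contacted baits were at higher coordinates, and where they lay on the minus strand alone (91 members) the share was 45.4%. Members without the letters (725) gave 46.1% and those with them on both strands (27) gave 33.2%, so the minus strand members were close to those without. Among the other PIRs the plus and minus strand shares were 51.7% and 48.1%, and 50.3% without the letters. The octamer ATTTGCAT, read by POU factors such as POU5F1, was in 23.8% of members and 32.1% of the others. TGACTCA, the AP-1 site, was in 58.7% and 53.2%, and ACTACAATT, part of a ZNF143 site, was in 2.58% and 4.28%. Both strands were searched for each motif. Lengths differ between the groups, and among fragments of 5 to 10 kb the octamer shares were 25.1% and 42.2%. Most letters of the octamer and of ACTACAATT are A or T, however. Median GC in that length class was 47.9% in members and 42.7% in the others. The shares of these motifs were not compared within GC classes, so nothing is read from the differences. The AP-1 letters occurred 16.3 times per 100 kb in members and 16.9 times in the others, so their higher share did not hold per length.

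Replicate lists and merged lists gave different numbers for the same fragment. The merged lists are called on both replicates combined, so a contact can pass there and in neither replicate alone. At members this was so for 20.4% of calls in ESCs and 19.2% in NECs, against 33.8% and 29.4% at other PIRs. Both replicates of ESCs held 31.5% of the merged ESC calls at members and both of NECs 28.5% of theirs, against 15.2% and 16.2% at other PIRs. The median score at members was 14.3 in both cell types, with a threshold of 12, and 13.2 in ESCs and 13.3 in NECs at other PIRs. In the replicate lists the median member had 4 baits in 3 of the lists and 3 baits in NEC replicate 2, which had the fewest cis calls to non-bait fragments (54793, against 57593 to 71886). Only 62 members had 6 or more baits in all 4 replicate lists, and 208 had them in both replicates of a cell type.

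Contacts of members were more often called in both cell types than contacts of other PIRs. Of the 6110 merged ESC calls at members, 58.4% were also in the merged NEC list (95% Wilson interval 57.2 to 59.6%, which covers counting error alone), against 37.2% of the ESC calls at other PIRs. Seen from the NEC list, 64.2% of 5556 calls were shared, against 36.8%. All 4 replicates held 8.68% of the members' merged calls and 2.53% of the others'. The choice of fragments with many merged calls bears on these shares, so they are descriptions.

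For each member the ESC and NEC replicates were compared by their ranges. NEC replicates were both above the ESC replicates in 117 members (12.6%) and ESC replicates were both above in 200 (21.5%), whereas the ranges overlapped in 612. Over the 3689 non-bait fragments with a mean of at least 2 baits in the replicates, these shares were 10.2% and 13.7%. Because the rule used the same lists, nothing is read from the excess. The difference was not spread evenly over loci: 37 of the 55 members of the histone locus on chromosome 6 had both NEC replicates above, and 13 of the 28 members of the HOXB locus had both ESC replicates above.

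**Figure D2:**
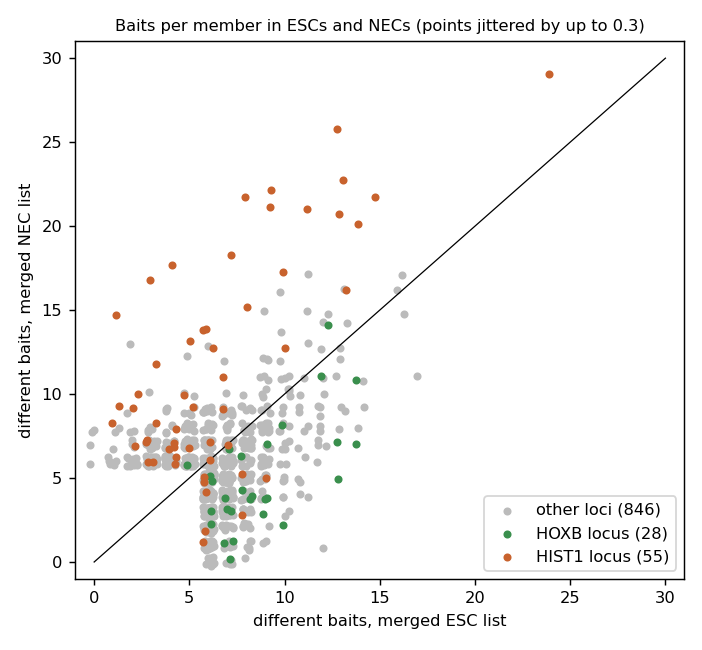
Different baits per member in the merged ESC list (horizontal axis) and the merged NEC list (vertical axis), with points moved by up to 0.3 at random so that they can be told apart and the line of equal numbers drawn. Members of the HIST1 locus (55, orange) lie mostly above the line with up to 29 baits in NECs, and members of the HOXB locus (28, green) lie mostly below it.

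The HIST1 locus held the fragments with the most baits. Its members span 1836 kb (chr6:26022603-27858119) around the larger cluster of genes for the histones that package newly made DNA. Its leading fragment, chr6:27107453-27111875, is 4423 bases long, has a GC content of 38.5% and overlaps an exon of H4C9, a gene for histone H4. The merged ESC list gave it 24 baits and the merged NEC list 29. Among the replicates, ESCs gave 23 and 22 baits and NECs gave 25 and 31. Both NEC values thus exceeded both ESC values. Of its 31 baits, 30 carried histone genes and the other carried HMGN4, a nucleosome-binding protein gene. The promoters were far away, at a median of 859 kb and up to 1078 kb, and only 2 of the 12 baits within 500 kb were among them. The strongest call in NECs was with the HIST1H3D/HIST1H2AD bait, 911 kb away, at a score of 41.0 in the merged NEC list and 21.5 in the merged ESC list. HIST1H3H, 670 kb away on the other side, scored 40.6 in NECs and 40.5 in ESCs, and all 4 replicate lists held it.

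Call numbers summed over the locus went the same way, but they are no separate support. The rule chose the members, and with them these baits, by call numbers in lists made from the same replicates. The same limit applies to the call numbers of the other families below. Between HIST1 baits and members, the ESC lists of single replicates held 333 and 254 calls and the NEC lists 495 and 632, so the groups did not overlap. NEC replicate 2 had the highest number although its list was the shortest, and NEC replicate 1 alone was also above both ESC replicates. All cis calls from these 35 baits to non-bait fragments moved in the same direction, with 498 and 407 in ESCs and 754 and 916 in NECs. A second fragment of the locus, chr6:27115525-27123818, had 8 merged baits in ESCs and 22 in NECs, a difference of 14 that was the largest among members and was shared by 3 other fragments of the locus. Single replicates gave 12 and 7 baits in ESCs, below the 15 and 25 of NECs. It lies between genes, and none of its 23 baits was within 500 kb.

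**Figure D3:**
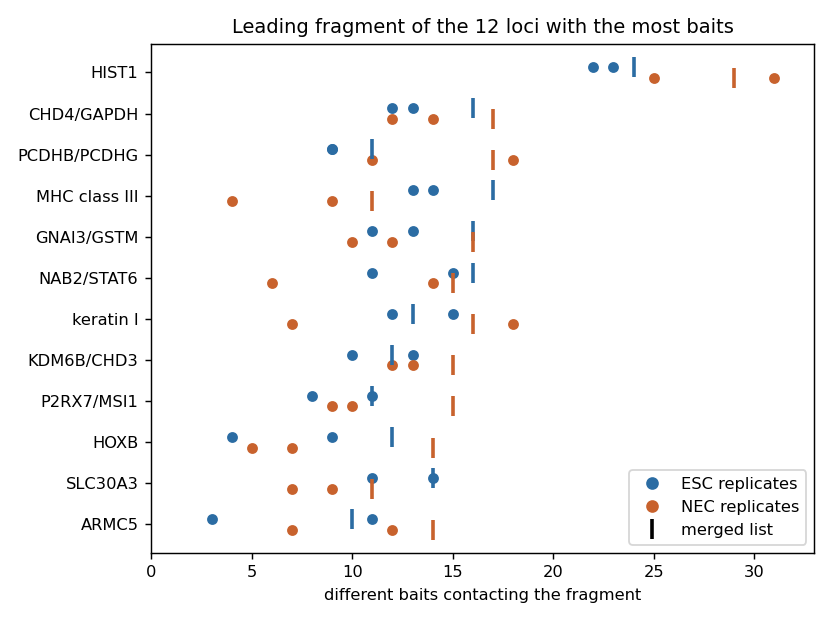
Different baits (horizontal axis) contacting the leading fragment of each of the 12 loci with the most baits, named by genes at the locus. Points are the replicate lists (blue, ESC; orange, NEC) and vertical ticks the merged lists. The HIST1 fragment has 22 and 23 baits in ESCs against 25 and 31 in NECs, and in 8 of the other 11 loci the replicate ranges of the cell types overlap.

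In the protocadherin locus on chromosome 5 the leading fragment, chr5:140902976-140908147, lies in DIAPH1, a gene for an actin-nucleating formin next to the cluster. It had 11 merged baits in ESCs and 17 in NECs. Each ESC replicate gave 9 baits, while the NEC replicates gave 18 and 11. All 17 baits lay on the side of the cluster, up to 714 kb away. They carried promoters of PCDHA4, of PCDHB genes such as PCDHB10 and PCDHB16, and of PCDHG genes such as PCDHGB6, whose score was 28.6 in NECs and 17.5 in ESCs, with TAF7, a subunit of the general transcription factor TFIID, as the only bait outside the families. A neighbouring fragment in an intron of DIAPH1, chr5:140931647-140935963, had 5 merged baits in ESCs and 12 in NECs, and its replicates gave 3 and 2 against 7 and 7. Another fragment, chr5:140895432-140898053, went the other way, with 9 merged baits in ESCs and 1 in NECs. There ESC replicate 1 gave 10 baits and ESC replicate 2 gave 2, against 1 and 0, so the number rested on ESC replicate 1.

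The clustered protocadherin genes gave 33 genes at 26 baits that contacted 21 members. These 33 were 89.2% of the family's genes at baits with a call, next to 18.8% of all genes at such baits. The number of baits nearby bears on such shares, as it does on the rule. PCDHG baits made 43 and 32 calls to members in single ESC lists, against 61 and 47 in single NEC lists. For PCDHB baits the numbers were 36 and 20 against 39 and 24, which overlap. PCDHA baits gave 17 and 13 against 23 and 19. The PCDHG and PCDHA ranges did not overlap, with NECs higher in both.

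HOX genes encode the transcription factors that specify position along the body axis. In total, 36 HOX genes at 32 baits contacted 66 members in 4 loci. These 36 were 92.3% of the HOX genes at baits with a call, next to 18.8% of all genes at such baits. HOXB baits made 38 and 73 calls to members in single ESC lists, both above the 22 and 18 of the NEC lists. HOXC baits gave 82 and 107 against 91 and 54, HOXD baits 14 and 11 against 16 and 13, and both of these overlapped. HOXA baits gave 11 and 21 against 23 and 23, with NECs higher in both. The 4 clusters thus did not move in 1 direction.

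At the HOXB locus the leading fragment, chr17:46693112-46696334, lies in an intron of HOXB7 and had 12 merged baits in ESCs and 14 in NECs. Its replicates had 4 and 9 baits in ESCs and 7 and 5 in NECs, which overlap. Of its 17 baits, 9 were in both merged lists. HOXB1 and HOXB9 were called in ESCs alone, and HOXB13, its antisense RNA HOXB13-AS1 and the bait next to them were called in NECs alone. All of these calls were in a merged list and in no replicate list, with scores of up to 17.0 for HOXB9 and 14.4 for HOXB13. NFE2L1, 566 kb away, was called in each of the 4 replicate lists. A second fragment of this locus, chr17:46676325-46680602 in introns of HOXB3 and HOXB6, had 13 merged baits in ESCs and 5 in NECs. The replicates gave 3 and 8 against 2 and 1, so ESC replicate 1 was only 1 bait above NEC replicate 1. In the merged ESC list it met the baits of HOXB2, HOXB3, HOXB4, HOXB6, HOXB8 and HOXB9, with scores of up to 18.0, and of these the HOXB4 bait alone was also called in NECs, at 12.9.

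**Figure D4:**
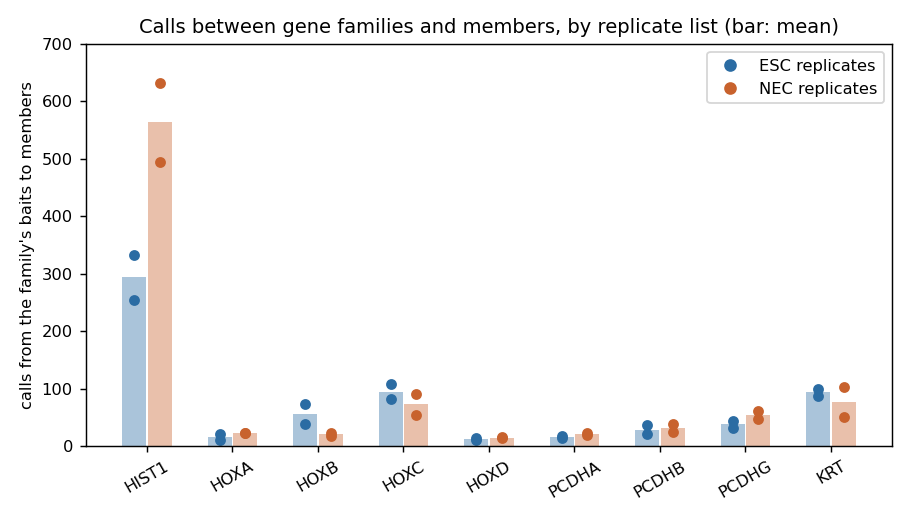
Calls in each replicate list between the baits of a gene family and members (vertical axis); points are the 2 replicates of ESCs (blue) and NECs (orange), and bars are their means. HIST1 baits made 254 and 333 calls in ESCs and 495 and 632 in NECs, and HOXB baits 38 and 73 against 18 and 22.

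The other leading fragments lay outside these families. On chromosome 12p13, chr12:6883919-6889462, in an exon of the immune receptor gene LAG3, had 16 merged baits in ESCs and 17 in NECs and 12 to 14 in each replicate. It met 19 of the 40 baits within 500 kb, among them GAPDH, a glycolytic enzyme, CHD4, a chromatin remodeller, and NOP2, an rRNA methyltransferase. The fragment chr1:110314004-110320343, which overlaps GSTM5, a glutathione transferase gene, had 16 merged baits in each cell type. Its replicates held 11 and 13 in ESCs and 10 and 12 in NECs, and these ranges overlap. A long fragment of 18263 bases, chr17:7721852-7740114, runs from DNAH2, a dynein heavy chain gene, into KDM6B, which encodes a demethylase of the Polycomb mark H3K27me3. It had 12 merged baits in ESCs and 15 in NECs, and the replicates overlapped at 10 and 13 for ESCs against 13 and 12 for NECs. The fragments chr12:57454216-57463340 in NEMP1 (16 and 15 merged baits), chr12:121019232-121024875 between genes (11 and 15) and chr16:31469798-31472159 in ARMC5 (10 and 14) also overlapped between the cell types in their replicates.

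At 2 further leading fragments both ESC replicates were above the NEC replicates. In the class III region of the major histocompatibility complex (MHC), chr6:31830742-31836414 in SLC44A4, a choline transporter gene, had 17 merged baits in ESCs and 11 in NECs. Single replicates gave 13 and 14 baits in ESCs, against 9 and 4 in NECs. It met GPANK1/CSNK2B at a score of 24.2 in ESCs and 14.9 in NECs, and LY6G5B at 21.2 and 22.0. On chromosome 2, chr2:27472315-27479943 in SLC30A3, a zinc transporter gene, had 14 merged baits in ESCs and 11 in NECs. Its ESC replicates gave the same pair of numbers, and its NEC replicates gave 9 and 7. All 11 of the baits in the NEC list were also in the ESC list.

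The keratin locus on chromosome 17 differed between replicates. Its leading fragment, chr17:39064987-39069047, intergenic, had 13 merged baits in ESCs and 16 in NECs, all on 1 side. NEC replicate 1 gave 18 and NEC replicate 2 gave 7, on either side of the ESC values of 12 and 15. Another fragment of the locus, chr17:39698353-39705982 in LINC00974, a long non-coding RNA gene, had 2 merged baits in ESCs and 13 in NECs. Its replicates gave 7 and 1 against 12 and 8, so ESC replicate 1 was 1 bait below NEC replicate 2.

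Named by the same rule, 3 further fragments had more baits in 1 cell type in both replicates. In the MHC region, chr6:31614982-31616968 in BAG6, a chaperone gene, had 12 merged baits in ESCs and 1 in NECs. ESC replicates gave 6 and 3 baits and each NEC replicate 1, and no bait was shared between the merged lists. In an exon of WNT1, which encodes a signalling protein of the developing midbrain, chr12:49373704-49376486 had 9 merged baits in ESCs and 1 in NECs. ESC replicate 1 gave 10 and ESC replicate 2 gave 2, so this number too rested on ESC replicate 1. In SHE, an adaptor protein gene, chr1:154448459-154454068 had 1 merged bait in ESCs and 8 in NECs, with 0 and 1 against 5 and 4 in the replicates. Its NEC baits included IL6R, the interleukin 6 receptor gene, ADAR, an RNA-editing enzyme gene, and KCNN3, a potassium channel gene 388 kb away.

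Expression was measured independently of the contacts and was tested. RNA-seq libraries held 19234087 and 25356382 counts in ESCs and 20793224 and 24323762 in NECs. Of 10 pluripotency markers 9 fell in NECs and all 10 neuroectoderm markers rose. The summed level of the pluripotency markers was 6961 to 7433 CPM (counts scaled to the library total) in ESCs and 1084 to 1670 in NECs, so their RNA was still present at day 7. Of 10 neural crest markers 6 rose and 1 fell, with a summed level of 129 to 131 CPM in ESCs and 81.8 to 227 in NECs. Of 9 tested mesendoderm markers 8 fell, from a summed 92.7 to 221 CPM to 8.38 to 8.47. In bulk RNA, fewer cells of a type and less RNA per cell cannot be told apart. Of all these 40 markers, only PAX6, a regulator of the neural tube and eye, and LIN28A, an RNA-binding protein of stem cells, had a promoter contacted by a member.

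Members were contacted by 2482 baits, 16.5% of the baits with a cis call to a non-bait fragment, and 2957 genes had their start there. Of these, 2155 passed the filter on low counts, and 246 rose in NECs and 126 fell (edgeR, adjusted p below 0.05 with a log2 fold change beyond 1.5 either way). Higher genes thus made up 11.4% of those tested, next to 11.4% of all 17564 genes tested. Lower genes made up 5.85%, next to 9.68% of all genes, and genes called in either direction 17.3%, next to 21.0%. Among the 8872 tested genes whose baits contacted non-bait fragments but no member, 12.1% rose and 9.09% fell. The median expression level was 4.85 log2 CPM for genes at members and 4.50 for these others. The median log2 fold change was 0.13 for genes at members and 0.01 for all genes. By the labels, the pair of ESC libraries shared 1 sequencing lane and the pair of NEC libraries another, and lane and cell type cannot be told apart in any of these values.

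Genes were also grouped by how the number of members contacted by their bait differed between the cell types. Where the bait contacted at least 3 more members in NECs than in ESCs, 10 of 83 tested genes rose and 2 fell. Where it contacted at least 3 more in ESCs, 19 of 152 rose and 6 fell, and where the numbers were equal, 68 of 640 rose and 38 fell. At members with both NEC replicates above, 13.5% of the 475 tested genes rose and 4.84% fell. At members with both ESC replicates above, 98 of 850 (11.5%) rose and 51 fell. The risen shares of these groups lay between 10.6% and 13.5%, next to 11.4% of all genes tested. Their fallen shares were each below the 9.68% of all genes tested, as was the 5.85% of all tested genes at members. Genes whose baits contacted 10 or more members included 30 that rose (17.3%) and 8 that fell (4.62%) among 173 tested. The risen share was 11.7% at baits contacting 1 member, 10.1% at 2 to 4 and 10.2% at 5 to 9. The risen genes at baits with 10 or more members included HOXB2, HOXB3 and PCDHG genes such as PCDHGB1 and PCDHGB6. Counts of PCDHG genes may repeat the same reads, as described below, so this share does not rest on separate genes. These genes share baits and loci, and no test of the difference was made.

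Gene families were then taken in turn, HOX first. Of 36 HOX genes at baits of members, 28 were too low to test, and all 8 that were tested passed the threshold, 7 upwards. A gene that is silent in 1 cell type can pass the filter only through the other, so these 8 are not a sample of the family. HOXA2, a hindbrain gene, had 0 and 0.0405 CPM in ESCs and 34.3 and 27.3 CPM in NECs, a ratio of 1332 whose counting interval runs from 239 to 52630 because it rests on 1 ESC count. HOXB2 had 0.106 and 0.0809 CPM in ESCs and 25.4 and 11.9 in NECs, a ratio of 198 (counting interval 76.9 to 727). HOXB3 had no count in ESCs and 10.8 and 5.03 CPM in NECs, at least 56.3-fold higher against a floor of 3 counts per library (edgeR adjusted p = 0.000628). HOXA3, HOXB1 and HOXC4 were also called higher. HOXB13, a gene of the posterior end of the cluster, had 0.742 and 0.728 CPM in ESCs and no count in NECs, at least 5.61-fold lower. The risen genes named here lie at the anterior end of their clusters. Of the genes between them and HOXB13, HOXB6 and HOXB7 were at the floor in both cell types, while HOXB4, HOXB8 and HOXB9 had no count in ESCs, did not pass the filter and had 8 and 0, 5 and 2, and 12 and 6 counts in the NEC libraries.

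At the fragment in introns of HOXB3 and HOXB6, 4 of the 6 tested genes at its baits rose and 0 fell, next to 11.4% and 9.68% of all genes tested. These 4 genes were at the floor in ESCs and could pass the filter only through NECs, so nothing is read from their share. The fragment had 13 merged baits in ESCs and 5 in NECs, with 3 and 8 against 2 and 1 in the replicates. Whether the contacts and the expression are linked was not tested. Besides HOXB2 and HOXB3 the risen genes were RP11-357H14.12 and RP11-357H14.7, non-coding genes within the cluster, the first at 0.106 and 0.0809 CPM in ESCs and 27.6 and 12.8 in NECs. Counting ignored strand, so reads of HOXB genes and of overlapping genes on the other strand cannot be separated. NEC replicate 1 was about 2 times NEC replicate 2 for HOXB2 and HOXB3, and both were far above both ESC libraries.

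All 33 clustered protocadherin genes at members were tested, and 16 rose (48.5%) and 0 fell, next to 11.4% and 9.68% of all genes tested. Of all 45 tested genes of the family, at members or not, 23 rose and 0 fell, so the rise was not particular to genes at members. All 12 PCDHG genes rose, by log2 fold changes of 2.56 to 2.88, whereas none of the 11 PCDHA genes passed, at -0.38 to -0.04. PCDHGB6 had 39.7 and 43.3 CPM in ESCs and 315 and 294 in NECs, which is 2.88 ± 0.10 (SE) on the log2 scale, at an edgeR adjusted p = 1.371e-05. PCDHGC4 went from 39.6 and 45.3 to 291 and 284 CPM. The genes of a subcluster share their last exons. Their counts lay close together, from 519 for PCDHGA11 to 822 for PCDHGB7 in ESC replicate 1, and PCDHGA3 and PCDHGA7 had the same number in both ESC libraries. The 12 PCDHG values and the 11 PCDHA values may therefore repeat the same reads and are not separate measurements. PCDHB genes each have a single exon of their own, and 4 of 10 rose, among them PCDHB10 from 1.17 and 1.13 to 7.96 and 5.43 CPM. At the leading fragment of the locus, 15 of 20 tested genes rose.

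Of 53 histone genes at baits of members, 24 passed the filter, and 2 rose and 0 fell, which is 8.33% of those tested next to 21.0% of all genes. The RNAs of replication-dependent histones end in a stem-loop and mostly carry no poly(A) tail, while the libraries were made from poly(A) RNA. HIST1H2AC had 9.85 and 15.9 CPM in ESCs and 4.73 and 4.50 in NECs, a log2 fold change of -1.49 just inside the threshold, and HIST1H2BK had 3.39 and 8.58 against 12.8 and 15.4 CPM (1.22). HIST1H1E, a linker histone gene, had 0.106 and 0.0809 CPM in ESCs and 0.983 and 0.446 in NECs (edgeR adjusted p = 0.009999), a ratio of 7.58 (counting interval 2.69 to 29.5). It lost its call without ESC replicate 2 (log2 fold change 2.67) or without NEC replicate 1 (2.22), and also with DESeq2 (2.92). These fold changes lie beyond 1.5, so it was the adjusted p that missed its threshold. HIST2H2BE rose from 2.28 and 2.18 to 9.31 and 5.35 CPM. At the leading HIST1 fragment 1 of 20 tested genes rose and 0 fell, and the median log2 fold change was -0.37.

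**Figure D5:**
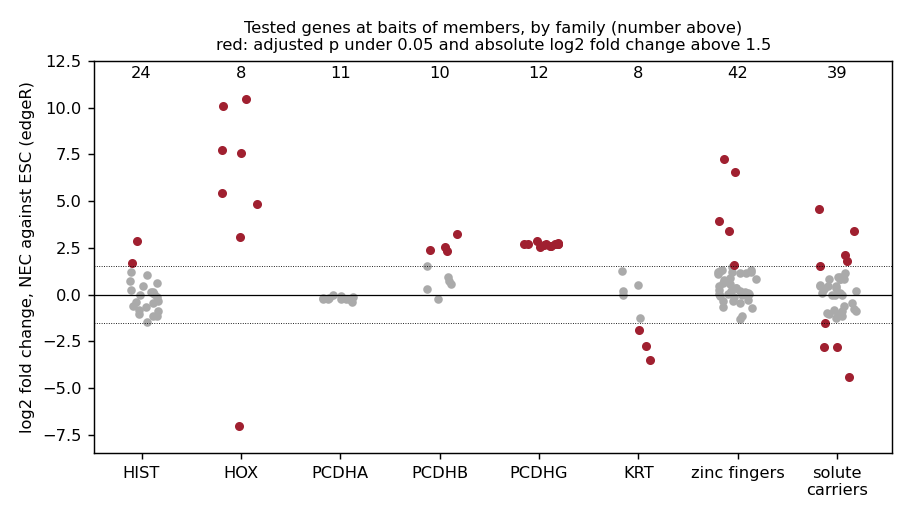
Log2 fold change in NECs against ESCs (vertical axis, edgeR) of tested genes at baits of members, by family (horizontal axis, with the number tested above); red points passed the test with a fold change beyond the dotted lines at 1.5 either way. All 8 HOX and all 12 PCDHG genes are red, and the 11 PCDHA genes lie near 0; fold changes of genes at the floor in 1 cell type, such as HOXB3 and HOXB13, depend on the prior count.

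The remaining lists covered keratins, transcription factors, transporters and others. Symbols that begin with KRT, which are keratins, keratin-associated proteins and a few unrelated genes, gave 66 genes at members, of which 8 were tested, 0 rose and 3 fell. Of the 9 tested in the whole list, 0 rose and 3 fell. KRT15 and KRT7, intermediate filament proteins of epithelia, fell, and so did KRTCAP3, which is no keratin. KRT15 had 0.689 and 0.566 CPM in ESCs and 0.0468 and 0.122 in NECs, 7.13 times as much in ESCs by the ratio of summed counts. It lost its call, through the adjusted p, without ESC replicate 1 (log2 fold change -2.66) or with DESeq2 (-2.89). KRT8 and KRT18, keratins of simple epithelia, had log2 fold changes of 0.20 and -0.01. Among 42 tested zinc finger genes 5 rose and 0 fell, next to 30 and 15 of the 515 tested in the whole family. Among 39 tested solute carrier genes 5 rose and 4 fell, next to 26 and 34 of the 270 tested in that family. Over all genes tested 11.4% rose and 9.68% fell. Of the fallen solute carrier genes, SLC3A2, the heavy chain of amino acid transporters, went from 467 and 535 to 163 and 182 CPM. Of 24 olfactory receptor genes and 7 LCE and SPRR genes none was tested. The 3 tested microRNA host or precursor genes included 1 that fell, the 3 CYP genes and the 2 small nuclear or nucleolar RNA genes included 0 called, and the S100 and SERPIN genes had 1 riser each, of 4 and 1 tested. No HLA, UGT, MAGE or GAGE gene was at a bait of a member.

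Among the genes with an average of at least 3 log2 CPM, the largest rises outside the HOX clusters were those of COL2A1, ZNF503, GDF10, PAX6 and KLHDC8A. COL2A1, type II collagen, had 2.49 and 2.95 CPM in ESCs and 550 and 593 in NECs, a log2 difference of 7.70 ± 0.14 (SE) with an edgeR adjusted p = 5.181e-06, and contacted 1 member in NECs and 0 in ESCs. ZNF503, a transcriptional repressor, rose from 0.265 and 0.324 to 55.1 and 37.5 CPM and contacted 1 member in each cell type. GDF10, a growth factor of the TGF-beta family, had 0.212 and 0.0405 CPM in ESCs and a log2 fold change of 7.15, while its 1 contact was in ESCs alone. PAX6 rose from 1.64 and 1.13 to 86.5 and 52.9 CPM and contacted 2 members in each cell type. KLHDC8A rose from 1.06 and 1.54 to 55.3 and 30.7 CPM. For each of these genes the libraries of the cell types did not overlap, while their contacts with members went up, down or stayed equal.

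The largest falls began with ACTA1, LCK and TUBA4A. ACTA1, skeletal muscle actin, had 67.1 and 79.2 CPM in ESCs and 0.702 and 1.66 in NECs, a log2 difference of -5.91 ± 0.28 (SE) with an edgeR adjusted p = 2.969e-05, and contacted 1 member in each cell type. LCK, a tyrosine kinase known from T cells, fell from 22.4 and 27.9 to 0.328 and 1.30 CPM. TUBA4A, an alpha tubulin, fell from 34.6 and 40.3 to 1.31 and 2.76 CPM and contacted 5 members in each cell type. SCNN1A, a sodium channel subunit, CD9, a tetraspanin of the cell surface, CLDN7, a tight junction protein, SOX15, a transcription factor, and ACTG2, a smooth muscle actin, had log2 fold changes between -3.96 and -3.52. CD9 and SCNN1A share a locus with GAPDH and CHD4, and their baits contacted 2 and 1 members in ESCs and 0 in NECs. In that locus GAPDH itself had a log2 fold change of 0.10 (adjusted p = 0.5852, edgeR).

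At the remaining named fragments between 0 and 5 genes rose. Over all genes tested, 11.4% rose and 9.68% fell. The chromosome 12p13 fragment had 5 risen genes of 25 tested, among them GPR162, an orphan receptor (2.91 and 2.06 CPM in ESCs, 31.8 and 25.7 in NECs), CD4, a receptor of T cells, and PTMS, parathymosin. At the KDM6B fragment 4 of 17 rose, EFNB3, an ephrin of axon guidance, from 20.5 and 17.1 to 167 and 135 CPM, with KCNAB3 and DNAH2. The MHC fragment in SLC44A4 had 1 of 21, DDAH2, from 61.2 and 58.9 to 217 and 159 CPM, and that in BAG6 had 0 of 15. At the NEMP1 fragment 2 of 20 rose. NAB2, a corepressor, rose from 17.0 and 11.7 to 66.0 and 57.5 CPM, with RDH16 from 0.0530 and 0.202 to 1.26 and 0.770 CPM. At the ARMC5 fragment 0 of 12 tested genes rose and 2 fell. These were PYCARD, an inflammasome adaptor, and PRSS8, a serine protease, with log2 fold changes of -3.81 and -2.21. At the GSTM5 fragment 2 of 13 rose. AMIGO1 rose by a log2 fold change of 1.83, and GSTM3, a glutathione transferase, rose from 4.34 and 3.64 to 14.4 and 8.23 CPM, just past the threshold. At the intergenic fragment on chromosome 12, 1 of 15 rose, P2RX7, an ATP receptor, by 1.71 on the log2 scale. At SLC30A3 0 of 15 rose and 1 fell, TRIM54, with a log2 fold change of -3.89. At the WNT1 fragment, with its ESC excess of baits, 2 of 9 rose. These were DDN and CACNB3, a calcium channel subunit, the second from 23.5 and 12.9 to 63.5 and 58.8 CPM. At the SHE fragment, with its NEC excess, 1 of 9 tested genes rose and 1 fell. KCNN3 rose by a log2 fold change of 3.13 and IL6R fell from 7.10 and 7.24 to 1.59 and 2.43 CPM. Several of these calls depended on single libraries or on the method. The log2 fold change of CACNB3 was 1.37, that of DNAH2 1.48 and that of GSTM3 1.37 without ESC replicate 2, while DDAH2 had 1.41 and GSTM3 1.05 without NEC replicate 1. DDN lost its call without ESC replicate 2 (1.76) or NEC replicate 1 (1.69), and P2RX7 without ESC replicate 1 (1.45), ESC replicate 2 (2.06) or NEC replicate 1 (0.94). With DESeq2, DNAH2 (2.05), P2RX7 (1.74) and GSTM3 (1.48) also lost their calls. Where the fold change given lies beyond 1.5, it was the adjusted p that missed its threshold. GSTM3 missed the fold threshold with DESeq2's size factors (1.48) and without the filter on low counts as well.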

How the data were processed

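The members, loci and gene lists were chosen with earlier results of these data known. The authors mapped PCHi-C reads to GRCh37 and scored pairs of HindIII fragments with CHiCAGO. Each deposited score is a p-value, weighted by distance, on a negative log scale, and the lists hold scores of at least 12, per replicate and for both replicates combined (merged). The lists give no reads per pair, so depth is unknown for every contact. A pair was counted once per list; all 158504 fragments matched a HindIII fragment of GRCh37. Hi-C was not analysed here.

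RNA-seq reads were aligned (Bowtie 1.0.0 and TopHat2 2.0.8b, per the labels) and the deposited counts are raw counts per Ensembl gene, without strand. The p-values measure the spread between 2 cultures per cell type. edgeR 4.0.16 (R 4.3.3) tested NECs against ESCs on the 17564 of 31017 genes that passed filterByExpr (minimum count 10), with TMM, the quasi-likelihood test, a prior count of 0.125 and Benjamini-Hochberg adjustment. A gene was called at an adjusted p below 0.05 with a log2 fold change beyond 1.5 either way. CPM is normalized by TMM. A gene was at the floor with 3 counts or fewer in both libraries of a cell type. Counting intervals are exact binomial at 95% and cover counting error alone. The method was tested on simulated data.

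Gene starts, from the count table, were matched to baits. Fragments were annotated with GENCODE for GRCh37, and sequence was read from that assembly; baits, GC and motifs were counted in Python 3.11.15 (pandas 2.3.3, networkx 3.6.1). Named fragments are the leading member of the 12 loci with most baits and, 1 per locus, the 4 members with the largest excess in each cell type whose replicate ranges do not overlap. Named genes are up to 3 risen and 3 fallen at each, the 8 largest and 8 smallest changes at an average of at least 3 log2 CPM, and family examples, which were chosen after their values were seen. Alternatives were other bait and score thresholds, other normalizations, DESeq2 1.42.0 and leaving out replicates.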

Additional observations from a re-analysis of the deposited data

Results flagged for a closer look

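Calls in trans, between different chromosomes, were outside the rule, and members had 5 of them in the merged NEC list against 1 in the merged ESC list. These were 1.88% of the 266 trans calls in the merged NEC list and 0.296% of the 338 in the merged ESC list. Of the 5, 4 joined HIST1 fragments on chromosome 6 to the baits of HIST2H2AA3 and HIST2H2BE, histone genes on chromosome 1, at scores of 12.8 to 14.1. NEC replicate 1 held 5 such calls from HIST2 baits, with scores up to 23.7, and NEC replicate 2 held 3, of which the one between HIST2H2BE and the fragment at chr6:27786656 scored 37.2. Neither ESC replicate held one. No pair of a HIST2 bait and a HIST1 fragment was in both NEC replicates, and the 4 merged pairs were in NEC replicate 1 but not in NEC replicate 2. A bait on chromosome 16 that carried no gene start of the count table was called with a member on chromosome 1 in both merged lists. Whether this call reflects a contact between the 2 chromosomes was not tested. In ESC replicate 2 the bait of HOXB9 met a member at HOXA and that of HOXB13-AS1 one at HOXC, at scores of 12.2 and 12.1. Trans calls at members ranged from 2 to 12 per replicate list.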

How the results depend on the processing

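The number of members depended on the rule: it was 1756 with 5 baits, 338 with 8 and 100 with a score of at least 15. From single replicate lists it was 438 to 598, with 317 and 464 of the 929 members among them. Counting neighbouring baits as 1 left 722. The share of ESC contacts at members also called in NECs was 73.3% with PIRs within 10 kb counted as shared, 50.5% with a score of at least 15, and 33.4% to 46.7% from single replicates. Median GC was 48.6% for 8 baits and 48.8% for a score of 15, and 47.2% to 47.3% from single replicates. The median number of baits within 500 kb was 30 and 29 for those thresholds and 27 from either replicate, and within 1 Mb it was 47. Without a fold change threshold 770 contacted genes were higher and 518 lower in NECs, and for members at 8 or more baits 136 and 61. Leaving out 1 library gave 212 to 275 higher and 115 to 146 lower genes. With the replicate block the numbers were 245 and 128; deviations of same-numbered libraries correlated by 0.074 across genes, so the numbers pair no samples. Other normalizations, no filter on low counts and DESeq2 gave 230 to 276 higher and 115 to 173 lower genes. Of 413 values of 46 named genes, 392 kept their side of the threshold and 21 kept their direction alone. Those 21 belong to HIST1H1E, DDN, DNAH2, CACNB3, P2RX7, DDAH2, GSTM3 and KRT15; GSTM3 fell short with the replicate block (1.45). The cause was not tested.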
